A study of Mus musculus with 9 samples.

Results

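The hair keratin-associated protein genes were taken as all genes on the array whose symbol in the platform annotation starts with Krtap and a digit. This gave 50 genes of the 19505 with a symbol of their own, each measured by 1 probe set, out of 22206 probe sets in all. The signals came from mouse brain on Clariom S arrays and are on a log2 scale, so that a difference of 1 is a doubling. RefSeq lists 56 Krtap symbols on the GRCm38.p6 assembly, so the array covers most of the family. Membership was set by symbol alone, but the family was chosen with earlier results of these data known.

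There were 3 groups of 3 arrays, all from male mice that were 6 weeks old on arrival and fed standard chow. The lean group was C57BL/6JHamSlc-+/+ given vehicle for 42 days and is called wild type here. The obese group was C57BL/6JHamSlc-ob/ob given vehicle for the same time. The third group was ob/ob given VE, an extract of Vigna umbellata, at 100 mg/kg body weight by oral gavage for 42 days. ob/ob mice lack functional leptin throughout the body and in every cell, so the groups do not separate an effect on the brain from the effects of obesity. The wild type was never given VE. The labels number the arrays 1 to 3 in each group and do not say whether any array pools animals, so the p-values measure the spread between these arrays. The labels give the tissue as brain, while the series' own design text names white adipose tissue and a second dose. The neuronal genes Syt1 and Snap25 had mean log2 signals of 18.58 and 17.73 over the 9 arrays, and the myelin gene Mbp had 17.58.

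Keratin-associated proteins are the matrix of the hair shaft. In the hair cortex they surround the hair keratin filaments and are cross-linked to them through disulfide bonds, which gives hair its stiffness. They are small proteins from short genes that lie in tight chromosomal clusters, and they fall into high-sulfur and ultra-high-sulfur families, rich in cysteine, and a high-glycine-tyrosine family. They are switched on late in the differentiating hair follicle and have no textbook role in brain tissue. Members within a family are close copies of each other, so a probe set may also bind the transcript of a relative, and such a shared signal was not tested here.

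The members lie in 4 chromosomal groups of GRCm38.p6. Of these, 23 lie on chromosome 16 between positions 88610709 and 89571183, 20 on chromosome 11 between 99550132 and 99993994, 5 on chromosome 7 between 142174532 and 142304503, and 2 on chromosome 10 between 77720586 and 77827070. Upstream sequence was available for 46 of the 50 from RefSeq on that assembly, with Krtap12-1, Krtap1-3, Krtap9-1 and Krtap7-1 not matched. The sequences below are the 120 bases before the annotated gene start, on the gene's own strand, for the members that the comparisons turn on: the called genes Krtap5-1, Krtap1-4 and Krtap19-1, Krtap5-4 with the largest difference of ob/ob from wild type among those not called, and Krtap3-2 and Krtap3-3, whose signals were identical. Capitals mark the letters TATAAA, the core of a TATA box.
Krtap5-1 (chr7:142297135-142297254, minus strand): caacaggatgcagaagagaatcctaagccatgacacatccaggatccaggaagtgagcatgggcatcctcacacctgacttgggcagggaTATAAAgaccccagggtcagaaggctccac
Krtap5-4 (chr7:142303382-142303501, plus strand): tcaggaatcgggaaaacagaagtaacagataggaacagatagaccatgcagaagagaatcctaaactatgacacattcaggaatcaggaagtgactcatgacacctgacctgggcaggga
Krtap1-4 (chr11:99583678-99583797, minus strand): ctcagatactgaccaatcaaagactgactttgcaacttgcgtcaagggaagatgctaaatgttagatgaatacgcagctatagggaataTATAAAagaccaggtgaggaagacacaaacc
Krtap3-2 (chr11:99556854-99556973, minus strand): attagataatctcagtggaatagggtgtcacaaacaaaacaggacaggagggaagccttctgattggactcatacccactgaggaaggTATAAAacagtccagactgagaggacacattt
Krtap3-3 (chr11:99550864-99550983, minus strand): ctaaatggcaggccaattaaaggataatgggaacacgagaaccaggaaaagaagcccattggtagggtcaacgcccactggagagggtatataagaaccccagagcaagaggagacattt
Krtap19-1 (chr16:88869411-88869530, minus strand): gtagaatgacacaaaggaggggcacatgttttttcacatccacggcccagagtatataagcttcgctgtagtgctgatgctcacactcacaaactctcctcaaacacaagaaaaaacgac

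The upstream windows shared a letter pattern that the choice of members did not use. TATAAA stood on either strand within the 250 bases before the start in 36 of 46 members (78.3%), against 12.4% of the 32851 RefSeq windows of that length. On the gene's strand, starting 40 to 20 bases before the gene start where a TATA box usually lies, it stood in 26 of 46 (56.5%), against 1.99% of all windows. GGGCGG, the core of a GC box, stood on either strand in 0 of 46, against 32.7% of all windows. CCAAT was found on either strand in 34.8% of members and 33.8% of all windows. CTTTGA and CTTTGT, which LEF and TCF factors of the hair follicle can bind, were found on either strand in 26.1% and 30.4% of members, against 13.8% and 16.5% of all windows. None of these motifs contains another, and a match of letters is a description and not a shown binding site. Apart from Krtap31-1 and Krtap31-2, with 202 of 250 bases identical (80.8%), no pair of members exceeded 43.6% identity position by position over the 250 bases, and the median pair had 26.8%. This count allows no gap or shift, so like stretches at an offset score low. Krtap3-2 and Krtap3-3 shared 35.6% by this count, while the deposited table lists the same signal for both on all 9 arrays. They count as 2 members below, and they hold 1 measurement.

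A single array stood apart by its correlations. Array 2 of the VE group correlated with the other 8 arrays at r = 0.9624 to 0.9703 over all probe sets, while those 8 correlated with each other at 0.9789 to 0.9929. Its log2 values also spread least, with an SD of 2.376 against 2.5645 to 2.836 on the other 8 arrays. The spread also differed between groups, with every ob/ob vehicle array (SD 2.5645 to 2.7253) below every wild-type array (2.7767 to 2.836). On VE array 2, 6 of the 50 members lay more than 1 log2 unit from the mean of the other arrays of their group, against 0 or 1 on each other array. Counts of members called at an adjusted p on the deposited values are given with and without it.

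In the brain of ob/ob mice given vehicle, most Krtap signals lay above those of wild type. The ultra-high-sulfur gene Krtap5-1 and the high-sulfur gene Krtap1-4 rose 2.09-fold and 2.34-fold. The difference was above 0 for 46 of 50 members, against 51.2% of all probe sets, and the median member difference was 0.47 on the log2 scale (range -0.42 to 1.23), against 0.02 over all probe sets. By limma with Benjamini-Hochberg adjustment over all probe sets, 2 members (4%) were called higher at an adjusted p under 0.05 and 0 lower, against 0.536% of all probe sets called higher. With bulk tissue, a higher share of cells that make a transcript and more of it per cell cannot be told apart.

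The 2 called members separated cleanly. Krtap5-1 had log2 signals of 10.19, 10.37 and 10.17 in wild type, 11.20, 11.08 and 11.65 in ob/ob given vehicle, and 10.24, 10.14 and 10.68 in ob/ob given VE. The lowest ob/ob vehicle array lay above the highest array of either other group. The difference of ob/ob from wild type was 1.07 (SE 0.22, n = 3 arrays in each group, limma adjusted p = 0.04336, 0.003104 to 0.2046 over the alternatives). Krtap1-4 had 6.51, 6.48 and 6.60 in wild type, 7.61, 7.43 and 8.23 in ob/ob given vehicle, and 6.79, 6.39 and 7.22 in ob/ob given VE. Again all ob/ob vehicle arrays were the highest, and array 3 was the highest of these for both genes. Its difference from wild type was 1.23 (SE 0.26, limma adjusted p = 0.04369, 0.003649 to 0.2046 over the alternatives).

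5 further members had differences of 0.83 to 1.07 that did not pass. Krtap5-4, a neighbour of Krtap5-1 in the ultra-high-sulfur cluster of chromosome 7, had 7.54, 7.30 and 7.17 in wild type, 8.07, 8.47 and 8.68 in ob/ob given vehicle, and 7.87, 6.93 and 7.27 with VE. Its difference from wild type was 1.07 (SE 0.26, limma adjusted p = 0.06261). Krtap11-1, a high-sulfur gene at the end of the chromosome 16 cluster, had 5.85, 6.29 and 5.70 in wild type, 6.69, 6.90 and 7.24 in ob/ob given vehicle, and 5.95, 6.46 and 5.68 with VE. That is a difference of 1.00 (SE 0.25, limma adjusted p = 0.06779). In both genes the ob/ob vehicle arrays did not overlap with either other group.

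In the remaining 3 of these the ob/ob vehicle group was again the highest. Krtap19-1, of the high-glycine-tyrosine family, had 8.75, 8.89 and 8.61 in wild type, 9.79, 9.44 and 9.51 in ob/ob given vehicle, and 8.59, 8.09 and 8.68 with VE. The ultra-high-sulfur gene Krtap9-1 had 7.92, 8.11 and 8.20 in wild type, 8.70, 8.87 and 9.31 in ob/ob given vehicle, and 8.12, 7.42 and 8.36 with VE. Krtap6-5, another high-glycine-tyrosine gene, had 10.12, 10.22 and 10.11 in wild type, 10.67, 10.84 and 11.45 in ob/ob given vehicle, and 10.20, 9.52 and 10.26 with VE. In each of the 3 all ob/ob vehicle arrays lay above the other 6, and VE array 2 was the lowest. The differences of ob/ob from wild type were 0.83 (SE 0.22, limma adjusted p = 0.07104), 0.88 (SE 0.26, limma adjusted p = 0.0949) and 0.84 (SE 0.26, limma adjusted p = 0.1065) for Krtap19-1, Krtap9-1 and Krtap6-5.

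**Figure D1:**
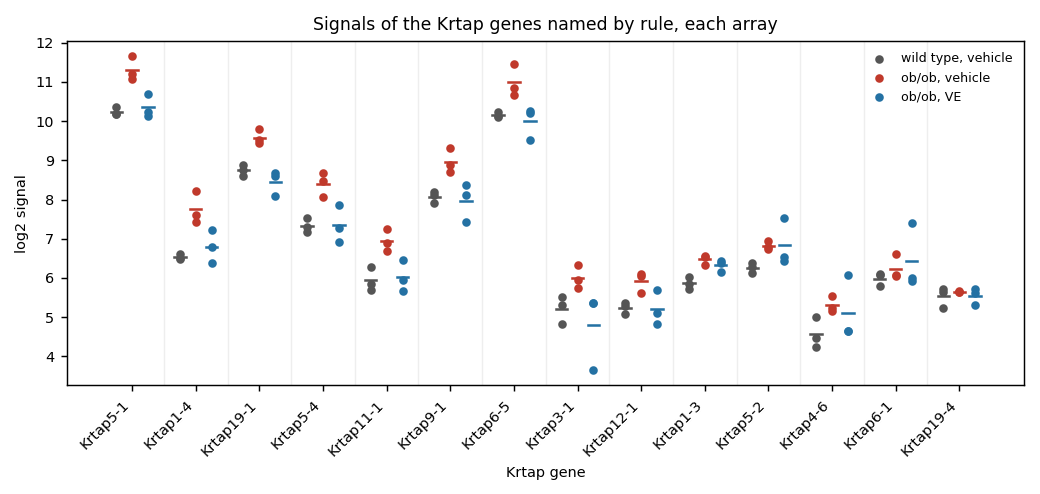
Log2 signal of the 14 named Krtap genes on each of the 9 arrays, with points for arrays and a bar for the mean of each group of 3. For Krtap5-1, Krtap1-4, Krtap19-1, Krtap5-4, Krtap11-1, Krtap9-1, Krtap6-5 and Krtap3-1 the ob/ob vehicle points lie above both other groups. In Krtap5-2, Krtap4-6 and Krtap6-1 a single VE array is the highest.

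The rest of the family varied. For 26 of 50 members (52%) all 3 ob/ob vehicle arrays lay above all 3 wild-type arrays, against 15.8% of all probe sets, and for 0 members below. Under the looser call rule of the design text, an unadjusted p under 0.05 with a linear fold over 1.1, 20 members (40%) were higher and 0 lower, against 9.88% of all probe sets higher. The members whose difference was below 0 were Krtap19-5 (-0.42), Krtap7-1 (-0.41), Krtap19-9b (-0.12) and Krtap20-2 (-0.03), all of the high-glycine-tyrosine family on chromosome 16, and none of these was called. Krtap19-4, the member whose 3 groups differed least, had 5.65, 5.23 and 5.72 in wild type, 5.64, 5.66 and 5.64 in ob/ob given vehicle, and 5.73, 5.61 and 5.30 with VE. Its groups overlapped throughout. Without VE array 2, which enters the comparison of ob/ob with wild type only through the shared estimate of the spread, 20 members (40%) were called higher, against 6.22% of all probe sets. Without any 1 of the ob/ob vehicle or wild-type arrays, or VE array 3, 0 members were called. Over all probe sets, too, these settings called few or none, 0 in either direction without ob/ob vehicle array 2 or 3 or wild-type array 2 or 3 and 20 to 98 without the other 3, so the zeros are not particular to the members. Without VE array 1 there were 3 members, Krtap1-4, Krtap5-1 and Krtap5-4, against 0.757% of all probe sets higher.

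**Figure D2:**
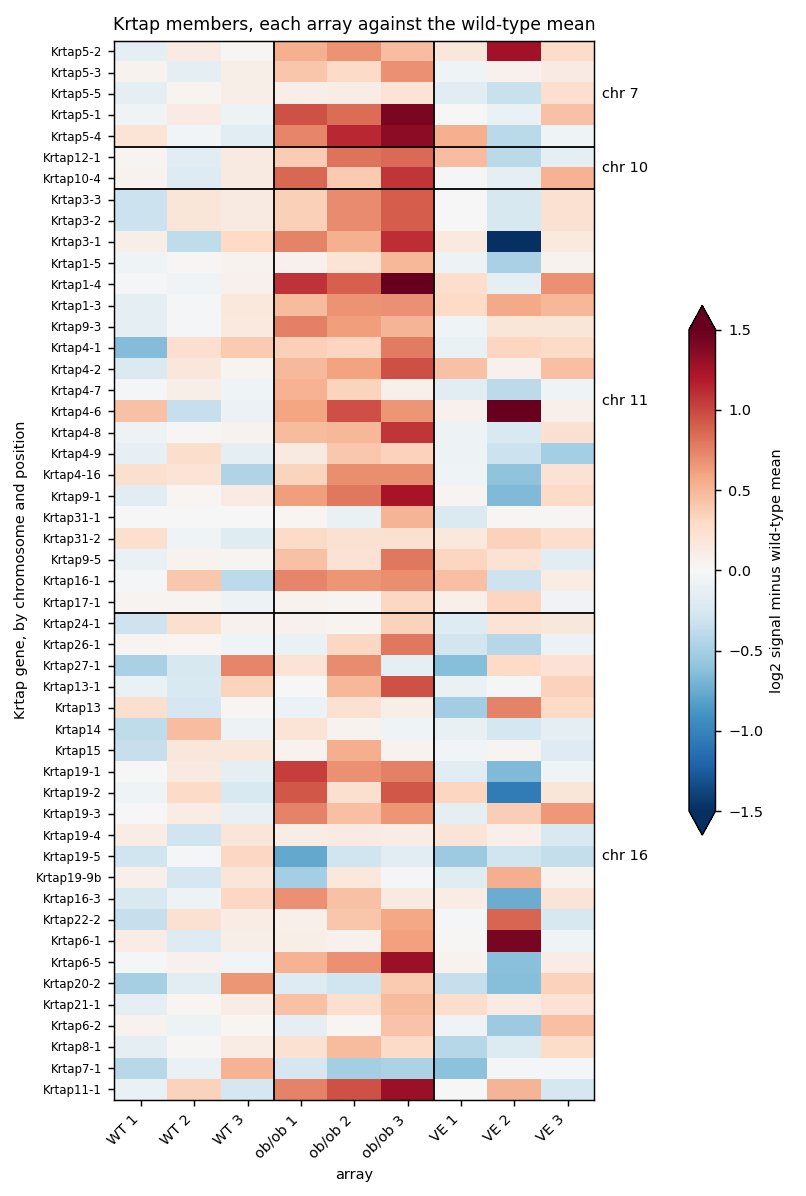
Log2 signal minus the wild-type mean for the 50 Krtap members (rows, by chromosome and position) on the 9 arrays (columns, by group), with red above and blue below the wild-type mean and the colour scale ending at 1.5 in each direction. The ob/ob vehicle columns are mostly red over chromosomes 7, 10 and 11, the chromosome 16 rows are mixed, and VE array 2 holds the darkest cells of its group, with Krtap5-2, Krtap4-6 and Krtap6-1 high and Krtap3-1 low.

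The median difference varied over families and chromosomes. The 16 ultra-high-sulfur members had a median difference of ob/ob from wild type of 0.57 with 16 above 0, and the 15 high-sulfur members had 0.48 with 15 above 0. The 14 high-glycine-tyrosine members had 0.29 with 10 above 0, and the 5 members not placed in a family here had 0.42. By chromosome, the median was 0.62 over the 20 members on chromosome 11, all of them above 0, and 0.26 over the 23 on chromosome 16, 19 of them above 0. It was 0.56 over the 5 on chromosome 7 and 0.73 over the 2 on chromosome 10. The 3 ob/ob vehicle arrays lay wholly above wild type for 14 of 20 members on chromosome 11, 4 of 5 on chromosome 7, 2 of 2 on chromosome 10 and 6 of 23 on chromosome 16. All 14 high-glycine-tyrosine members lie on chromosome 16, beside 8 high-sulfur members whose median was 0.24, no higher than theirs. The 7 high-sulfur members on chromosome 11 had a median of 0.66, and the 11 ultra-high-sulfur members there had 0.58. These medians are descriptions, and the differences between families and between chromosomes were not tested.

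Array by array, the shift was present in each ob/ob vehicle array. The median of the 50 members, each taken from its wild-type mean, was 0.36, 0.43 and 0.64 on the ob/ob vehicle arrays, -0.07, 0.02 and 0.07 on the wild-type arrays, and -0.03, -0.12 and 0.18 on the VE arrays. The group means were 0.47 ± 0.15 (SD, n = 3) for ob/ob given vehicle, 0.01 ± 0.07 for wild type and 0.01 ± 0.15 for VE. All 3 ob/ob vehicle arrays lay above the other 6 arrays. The members are not replicates, and this median carries no test.

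The whole array also moved with signal level, so the members were set against probe sets of like mean signal. Over all probe sets, those below the median mean signal had a median difference of ob/ob from wild type of 0.17, and those above it -0.21. After the median of the probe sets in the same of 20 bins of mean signal was taken from each member, the median member difference was 0.29, with 39 members above 0 and 11 below. Array by array that left 0.29, 0.35 and 0.47 on the ob/ob vehicle arrays, -0.07, 0.01 and 0.07 on the wild-type arrays, and -0.04, 0.00 and 0.13 on the VE arrays. After quantile normalization of all 9 arrays the median member difference was 0.32, and 0.30 over probe sets of like level. On the quantile-normalized values 7 members (14%) were called higher and 0 lower, against 1.72% of all probe sets: Krtap1-4, Krtap19-1, Krtap4-2, Krtap5-1, Krtap5-4, Krtap6-5 and Krtap9-1. Krtap4-2, an ultra-high-sulfur gene of chromosome 11, had a difference of 0.82 there (SE 0.20, limma adjusted p = 0.04623).

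**Figure D3:**
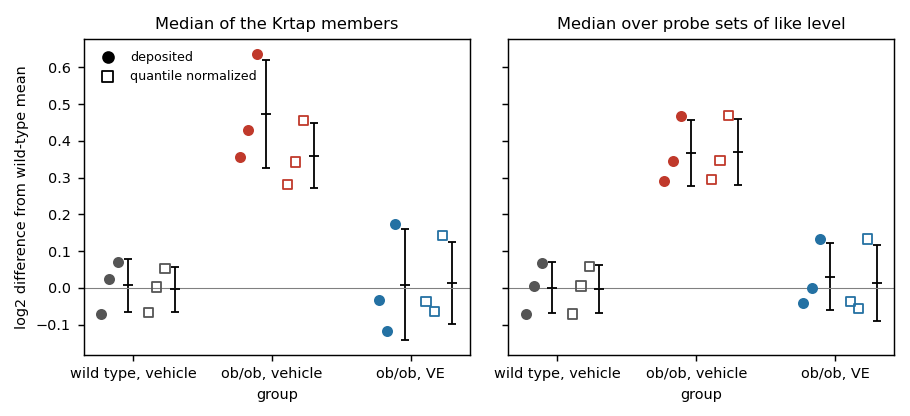
Median over the 50 Krtap members of the log2 difference from the wild-type mean on each array, by group, from the deposited values (filled) and after quantile normalization (open), with the mean and SD of 3 arrays beside the points. The left panel is the plain median and the right panel is the median over probe sets of like signal level. The ob/ob vehicle arrays lie at 0.28 or above in both panels and the other 6 arrays at 0.18 or below.

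The difference from like-level probe sets was larger in the members with the higher signals. The 18 members above the median signal of all probe sets (7.13) had a median difference of ob/ob from wild type of 0.67, or 0.80 over like-level probe sets. The 32 members below it had 0.31, or 0.14 over like-level probe sets. Across the 50 members the mean signal and the difference correlated at r = 0.61, while across all 22206 probe sets they correlated at r = -0.41. Both are descriptions across probe sets measured on the same 9 arrays, and a probe set's signal depends on its sequence as well as on the amount of transcript.

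**Figure D4:**
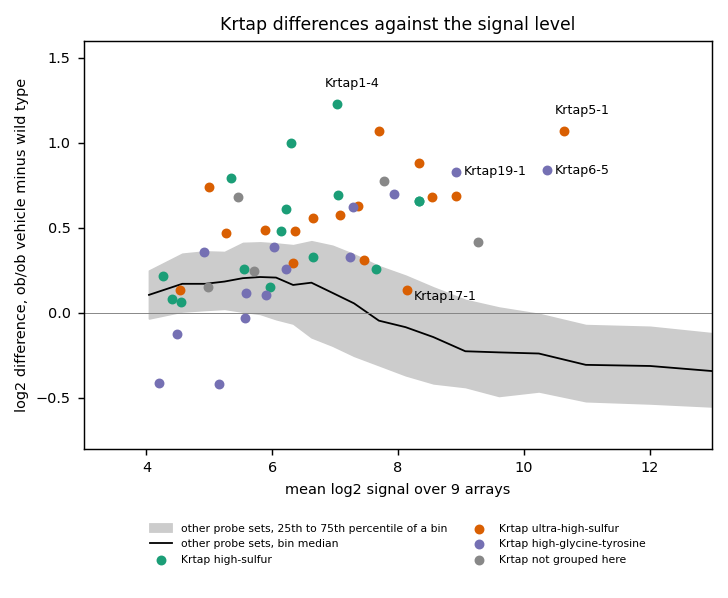
Log2 difference of ob/ob vehicle from wild type (vertical) against the mean log2 signal over the 9 arrays (horizontal) for each Krtap member, coloured by family, with the median and the interquartile range of other probe sets in 20 bins of signal as a line and a band. The other probe sets fall below 0 at high signals, where Krtap5-1 (1.07), Krtap6-5 (0.84) and Krtap19-1 (0.83) lie far above the band.

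VE was then compared with vehicle in ob/ob mice. Krtap19-1 fell by 1.13 on the log2 scale, and most other members also had lower signals. The difference was below 0 for 43 of 50 members, against 58% of all probe sets, with a median of -0.39 (range -1.22 to 0.26) against -0.07 over all probe sets. By limma with adjustment over all probe sets 1 member (2%) was called lower and 0 higher, against 0.473% of all probe sets called lower. This comparison uses the same ob/ob vehicle arrays as the one with wild type, so a high value on those arrays raises the first difference and lowers the second, and the 2 are not independent.

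Krtap19-1, with the signals given above, had its 3 VE arrays at 8.09 to 8.68, below the lowest ob/ob vehicle array at 9.44. The difference was -1.13 (SE 0.22, limma adjusted p = 0.04032, 0.007166 to 0.2105 over the alternatives). For Krtap5-1 the difference of VE from vehicle was -0.96 (SE 0.22, limma adjusted p = 0.07747), and for Krtap5-4 it was -1.05 (SE 0.26, limma adjusted p = 0.08912). Krtap6-5 and Krtap9-1 had -0.99 each (limma adjusted p = 0.0993 and 0.1036), Krtap1-4 had -0.96 (limma adjusted p = 0.1132) and Krtap11-1 had -0.91 (limma adjusted p = 0.1235). None of these 6 passed, and in each the VE arrays lay wholly below the ob/ob vehicle arrays.

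The size of some of these differences rests on VE array 2. Krtap3-1, a high-sulfur gene with the largest difference of all members, had 5.31, 4.83 and 5.51 in wild type, 5.96, 5.75 and 6.32 in ob/ob given vehicle, and 5.36, 3.66 and 5.36 with VE. The low value is VE array 2, and the difference of VE from vehicle was -1.22 (SE 0.39, limma adjusted p = 0.1837) with it and -0.65 without it. Krtap12-1, on chromosome 10, had 5.28, 5.07 and 5.37 in wild type, 5.62, 6.05 and 6.09 in ob/ob given vehicle, and 5.70, 4.83 and 5.11 with VE, so its VE and vehicle arrays overlapped. On 3 named members the same array was instead the highest of the 9. Krtap5-2 had 6.44, 7.53 and 6.54 with VE against 6.80, 6.94 and 6.73 with vehicle, Krtap4-6 had 4.64, 6.07 and 4.65 against 5.16, 5.54 and 5.23, and Krtap6-1 had 6.00, 7.41 and 5.92 against 6.07, 6.05 and 6.60. In wild type these genes had 6.12, 6.39 and 6.29 for Krtap5-2, 5.01, 4.23 and 4.48 for Krtap4-6, and 6.09, 5.79 and 6.07 for Krtap6-1. The remaining VE arrays lay below all vehicle arrays in each of the 3.

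Over the family, all 3 VE arrays lay below all 3 ob/ob vehicle arrays for 21 members (42%), against 11.9% of all probe sets, and for 0 members above. These were 13 of 20 on chromosome 11, 3 of 5 on chromosome 7, 5 of 23 on chromosome 16 and 0 of 2 on chromosome 10. Under the design text's rule 21 members (42%) were lower and 0 higher, against 10.1% of all probe sets lower. The median difference of VE from vehicle was -0.47 for ultra-high-sulfur, -0.43 for high-sulfur and -0.17 for high-glycine-tyrosine members. Over probe sets of like level the median member difference was -0.31, with 41 below 0 and 9 above. On quantile-normalized values it was -0.31, and 1 member (2%), Krtap19-1, was called lower at -1.10 (SE 0.17, limma adjusted p = 0.01024), against 1.19% of all probe sets lower. Without VE array 2, Krtap19-1 and Krtap11-1 were called lower, 2 of 50 (4%), against 1.27% of all probe sets. Without any 1 of the ob/ob vehicle or wild-type arrays, or VE array 3, 0 were called, where over all probe sets 0 were called in 5 of these 7 settings, 16 without wild-type array 1 and 96 without VE array 3. Without VE array 1 the 1 called was Krtap5-4, against 0.594% of all probe sets lower.

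In ob/ob given VE against wild type, the members' differences centred on 0. The difference was above 0 for 25 and below 0 for 25, with a median of 0.00 (range -0.42 to 0.57), against -0.07 over all probe sets, and a median of 0.06 over probe sets of like level. By limma 0 members were called, against 0.0991% of all probe sets in either direction, and the smallest adjusted p of a member was 0.3678. At an unadjusted p under 0.05 there was 1 member, Krtap1-3, which is the 1 (2%) higher under the design text's rule, against 2.98% of all probe sets. The VE arrays lay wholly above wild type for Krtap5-2, Krtap1-3 and Krtap21-1, and wholly below for Krtap26-1 and Krtap19-5, 5 of 50 against 16.8% of all probe sets in either direction.

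Krtap1-3, a high-sulfur gene next to Krtap1-4, had 5.73, 5.84 and 6.03 in wild type, 6.34, 6.54 and 6.55 in ob/ob given vehicle, and 6.16, 6.44 and 6.37 with VE. It is a member whose VE and vehicle arrays overlapped, with a difference of VE from wild type of 0.46 (SE 0.19) and of ob/ob vehicle from wild type of 0.61 (SE 0.19, limma adjusted p = 0.113). The standard errors of all members ran from 0.19 to 0.39, and the smallest difference called among all probe sets in this comparison was 1.14. A p above the threshold here therefore does not show that ob/ob mice given VE had the signals of wild type.

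The partners of these proteins in the hair shaft, the hair keratins, had smaller median differences of ob/ob from wild type than the Krtap members. Of 9 type I hair keratin genes 0 were called in either direction, with a median of 0.22, and of 3 type II genes 0, with a median of 0.09. With 0.536% of all probe sets called higher and 0.73% lower, lists this short say little by their counts. After quantile normalization the medians were 0.05 and -0.09, so that of the type II genes changed sign. The type I gene Krt40 had a difference of 0.37 (limma adjusted p = 0.3219) and the type II gene Krt86 had 0.42 (limma adjusted p = 0.3249). The mean signals of the hair keratins lay between 4.08 and 7.16, and those of the Krtap members between 4.20 and 10.64. Over like-level probe sets the type I and type II medians were 0.05 and -0.07. The Krtap members had 0.29 there, and those below the median signal of all probe sets had 0.14. The medians of VE from vehicle were 0.09 for type I and 0.12 for type II genes. Of 15 follicle regulators and enzymes 0 were called, with a median of 0.24. The difference was above 0 for 12 of the 15 and below 0 for 3, and the 2 with the smallest p pointed opposite ways. Hoxc13, a factor that drives hair keratin genes, had 0.55 (limma adjusted p = 0.1441) and Lef1, a follicle factor of the Wnt pathway, had -0.78 (limma adjusted p = 0.08568). Lef1 was called lower after quantile normalization (limma adjusted p = 0.02987), the 1 gene of the 15 called there, against 1.13% of all probe sets lower. Among 8 inner root sheath keratins and 8 epidermal keratins 0 were called, with medians of 0.29 and 0.16, or 0.13 and -0.03 after quantile normalization. All 8 of the first list and 5 of the second lay above 0, and 3 of the second below. The epidermal gene Krt5 had 0.56 (limma adjusted p = 0.2141) and the inner root sheath gene Krt27 had 0.69 (limma adjusted p = 0.2581).

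Genes of the cornified envelope, which makes the outer layer of the epidermis, had the median nearest to that of the Krtap members among these lists. The 41 of them had a median difference of ob/ob from wild type of 0.36 and of VE from vehicle of -0.40. Over like-level probe sets these medians were 0.25 and -0.34, close to the 0.29 and -0.31 of the Krtap members. Of the 41 genes, 1 was called higher in ob/ob, against 0.536% of all probe sets. This was the filaggrin relative Flg2, with a difference of 1.29 (SE 0.21, limma adjusted p = 0.02499). Lce1a2, a late cornified envelope gene, had 0.77 (limma adjusted p = 0.08119). After quantile normalization 3 were called higher, Flg2, Lce1a2 and Lce3c (limma adjusted p = 0.01028, 0.016 and 0.03232), against 1.72% of all probe sets, and the median was 0.27. Brain cell markers moved the other way: the 15 listed had a median of -0.77, and the astrocyte genes Gfap and Aqp4 were called lower at -1.40 (SE 0.28, limma adjusted p = 0.03943) and -0.91 (SE 0.20, limma adjusted p = 0.04674), 2 of 15 against 0.73% of all probe sets lower. After quantile normalization neither passed (limma adjusted p = 0.1092 and 0.1211), while the microglial genes Csf1r and Cx3cr1 did, both lower (limma adjusted p = 0.04187 and 0.03571), and the median was -0.55. The mean signals of these 15 ran from 6.47 to 18.58. The part of these skin and brain lists in the Krtap result was not tested.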

How the data were processed

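The deposited table holds 1 log2 signal per probe set and array, for 9 arrays in 3 groups of 3. Per the series' design text the authors made these log2 values with SST-RMA in Transcriptome Analysis Console, and the submitters' processing notes list RMA and version 4 of that program. RMA normalizes the arrays before it summarises probes into probe sets. The deposited arrays still differed in spread (SD 2.376 to 2.836), which shifts low and high signals against each other. Values were therefore also taken after quantile normalization of the probe sets. The number of arrays limits the precision, and no detection call was used here. Symbols came from the platform annotation and positions and upstream sequences from RefSeq on GRCm38.p6.

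Group means were fitted over all 9 arrays with limma 3.58.1 in R 4.3.3 with empirical Bayes moderation, without a block, and p-values were adjusted by Benjamini-Hochberg over 22206 probe sets. Calls used an adjusted p under 0.05. The script was tested on simulated data. Level bins were 20 equal-count bins of the mean over 9 arrays, without members. Families were assigned by family number from textbook grouping, and 5 members were left unplaced. The members and lists were chosen with earlier results of these data known. Named members are those called, the 5 with the largest difference and the 2 with the smallest p in each comparison, the member with the median difference on each chromosome, and the one with the largest F-test p; of other lists, called genes and the 2 with the smallest p.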

Additional observations from a re-analysis of the deposited data

How the results depend on the processing

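Members called in ob/ob against wild type, 2 as reported, numbered 7 after quantile normalization (1.72% of all probe sets higher), 7 after cyclic loess (2.18%), 20 under the design text's rule (9.88%), 17 with the 2 groups alone (5.43%), 14 with quantile normalization without VE array 2 (4.71%), and 0 to 20 when each array was left out in turn. Members called in VE against ob/ob vehicle, 1 as reported, numbered 3 after cyclic loess (1.4% of all probe sets lower), 0 with arrays centred on their median (0.279%), 21 under the design text's rule (10.1%), 0 among probe sets with 1 symbol and 0 with the 2 groups alone (0 of all probe sets in both), 3 with quantile normalization without VE array 2 (1.36%), and 0 to 2 with each array left out. In VE against wild type the design text's rule gave 1 and each other setting 0. The median difference of ob/ob from wild type moved to 0.32 under quantile normalization, cyclic loess (0.3168) and quantile normalization without VE array 2 (0.3242), and to 0.67 among probe sets above the median signal. That of VE from vehicle moved to -0.26 with centring and -0.66 above the median signal. The medians over like-level probe sets moved by less than the spread between arrays (SD 0.1227) under every alternative run for them. The setting of probe sets above the median signal was not run for them. In ob/ob against wild type, members above that signal had 0.80 over like-level probe sets and those below it 0.14, against 0.29 for all members. Of all probe sets, 0.536% were called higher in ob/ob with VE array 2 and 6.22% without it. With the replicate block 2, 1 and 0 members were called in the 3 comparisons, as without it. The signals themselves correlated at 0.9624 or higher between any arrays, so pairing was looked at in their deviations from the group means. In these, same-numbered arrays of different groups correlated at -0.0323 to 0.3314, and differently numbered ones at -0.2892 to 0.111. Whether the numbers pair the arrays was not tested.

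Reversed differences were all of uncalled members. For Krtap19-4, ob/ob minus wild type was -0.0717 under quantile normalization (-0.0731 without VE array 2) and -0.0594 under loess. VE minus vehicle was 0.0122, 0.0104 and 0.0033, and 0.0233 with centring. VE minus wild type was -0.0594, -0.0627 and -0.0561. With quantile normalization without VE array 2, VE minus vehicle was -0.2238 for Krtap5-2 and -0.1573 for Krtap6-1, and VE minus wild type was -0.0681 for Krtap6-1 and 0.0923 for Krtap3-1. With each array left out in turn, VE minus vehicle ran from -0.1917 to 0.0233 for Krtap19-4, -0.3333 to 0.2117 for Krtap5-2, -0.28 to 0.465 for Krtap6-1 and -0.665 to 0.05 for Krtap4-6. VE minus wild type ran from -0.1383 to 0.1367 for Krtap19-4, -0.0233 to 0.7217 for Krtap6-1 and -0.7067 to 0.1433 for Krtap3-1, and ob/ob minus wild type from -0.0383 to 0.2067 for Krtap19-4. Krtap5-1 and Krtap1-4 kept their direction under every alternative run and missed the threshold in 7 each, and Krtap19-1 did so in 11. The cause of these changes was not tested. In the main fit, with 3 arrays a group, the smallest difference called over all probe sets was 0.85 in ob/ob against wild type. It was 1.01 in VE against vehicle. Smaller differences were called under other settings. In ob/ob against wild type these include Krtap4-2 at 0.82 after quantile normalization and Krtap5-2 at 0.56 without VE array 2. In VE against vehicle, Krtap19-1 was called at -0.945 without that array.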
